A study of Mus musculus with 8 samples.

Results

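The genes described here carry the β-adrenergic signal inside the fat cell, from the G protein to the nucleus, and 6 of 7 listed genes could be read: Gnas, Rgs2, Prkaca, Prkar1a, Pde4b and Crem. Members were chosen by symbol in the platform annotation, and the brightest probe set (mean of 8 arrays) stood for each gene, out of 8251 genes with a probe set of their own. The annotation used here lists no probe set for Prkar2b, which encodes a regulatory subunit of protein kinase A, so it was not analysed here. All 6 members entered the test across 6128 genes.

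The RNA came from mouse epididymal white adipose tissue, hybridised to 8 Affymetrix arrays with 1 array in each of 8 groups. Wild type mice and Ppara KO mice, which lack the nuclear receptor PPARα, were sampled as controls, 8 hours after 30 nmol of the β3-adrenergic agonist CL 316243, and after 3 days or 6 days at 3 nmol per hour. The wild type control is labelled as without drug, and the labels name no vehicle, strain, age or number of animals behind an array. The labels do not say how the Ppara deletion was made. With 1 array per group, the wild type and Ppara KO arrays of a time stand in as replicates of each other. The p-values here so rest on how far the genotypes disagree over time, together with array noise, which may be technical. No spread within a group was measured. The 8 hour arrays differ from the 3 day and 6 day arrays in dose and manner of dosing as well as in time. These cannot be told apart in any comparison of 8 hours with the later times.

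β-adrenergic receptors act through Gs, whose α subunit is the product of Gnas and switches on adenylyl cyclase. The cyclic AMP that is made binds the regulatory subunits of protein kinase A, releases the catalytic subunits, and so leads in fat to phosphorylation of hormone-sensitive lipase and perilipin and to lipolysis. The signal is limited at several levels: RGS proteins act on G proteins and on cyclases, phosphodiesterases break cyclic AMP down, and Crem, a member of the CREB family of transcription factors, encodes activators and also a short repressor, ICER, that cyclic AMP itself induces.

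The sequences shown are the 250 bases before 1 RefSeq start site each of Prkaca, Rgs2 and Prkar1a. Prkaca was the 1 member that changed by the test, and Rgs2 the member with the largest range. Prkar1a was the 1 gene, of the 6 listed genes searched, with an entry that held a full cyclic AMP response element (CRE). Crem was not searched. They are from build GRCm38.p6, at chr8:83972728-83972977 on the plus strand for Prkaca, chr1:144004150-144004399 on the minus strand for Rgs2 and chr11:109650699-109650948 on the plus strand for Prkar1a, each written along its gene. Capitals mark the CRE core site TGACG, searched on both strands (CGTCA on the other), and the palindrome TGACGTCA, in which both strands' core sites overlap.
Prkaca: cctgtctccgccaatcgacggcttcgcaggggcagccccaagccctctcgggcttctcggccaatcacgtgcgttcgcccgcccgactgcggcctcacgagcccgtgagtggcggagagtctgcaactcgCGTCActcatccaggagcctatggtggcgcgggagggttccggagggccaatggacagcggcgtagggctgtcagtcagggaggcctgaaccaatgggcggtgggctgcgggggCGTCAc
Rgs2: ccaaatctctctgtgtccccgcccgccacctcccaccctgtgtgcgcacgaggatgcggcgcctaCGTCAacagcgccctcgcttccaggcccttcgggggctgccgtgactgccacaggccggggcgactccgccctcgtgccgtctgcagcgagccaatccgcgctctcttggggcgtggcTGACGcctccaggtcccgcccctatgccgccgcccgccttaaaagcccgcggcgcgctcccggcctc
Prkar1a: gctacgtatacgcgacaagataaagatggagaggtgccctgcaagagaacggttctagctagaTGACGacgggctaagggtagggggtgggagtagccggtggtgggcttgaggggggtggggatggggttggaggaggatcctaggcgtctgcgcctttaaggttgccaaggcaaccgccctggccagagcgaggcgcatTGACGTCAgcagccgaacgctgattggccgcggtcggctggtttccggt
The table has 2 windows for Prkaca, of which 1 held a core site, 1 for Rgs2, and 6 for Prkar1a, of which 3 held a core site and 2, which overlap, the palindrome. The windows shown were chosen for their sites. In them Prkaca held core sites that begin at -120 and -6 from the start, and Rgs2 at -185 and -67. Prkar1a held a core site at -187 and the palindrome at -49. Entries of 6 of the 7 listed genes were searched. Of these, Gnas also had a core site in 3 of 4 windows and Pde4b in 1 of 4, and Prkar2b had it in 0 of 2. Crem was left out of the search, so whether its promoters hold a core site or the palindrome is not given here. Over all 32851 windows of 300 bases in the table, 20.8% held a core site and 1.79% the palindrome, so core sites are common, and a match is a description of the letters only.

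Intensities were alike in scale on all arrays, with medians between 320 and 322, and values at or under 171, the 40th percentile of all values, were treated as a floor. All 8 measured adipocyte markers exceeded the floor on every array. The arrays also carried signal of other tissues and cells. Summed over 4 epididymis markers the intensity was 85083 in the Ppara KO control, 12529 in Ppara KO at 8 hours and 7258 in wild type at 6 days, against 287 to 2163 elsewhere. Summed over 5 pancreas markers it was 68416 in the wild type control and 19547 in Ppara KO at 8 hours, against 2477 to 3726 elsewhere. So the controls of the genotypes stood apart in different organ markers, and the part of this in any change from control was not tested.

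Among the members, Prkaca fell at 8 hours in both genotypes and was near its control level on the infusion arrays. Rgs2 was at its highest in infusion, Prkar1a was highest at 8 hours and lowest in infusion, Crem was raised mainly on 1 array, Gnas varied little, and Pde4b lay around the floor. At 8 hours 1 of 6 members passed, against 14.8% of all genes tested (906 of 6128). After 3 days of infusion 0 of 6 passed, against 1.14% of all genes, and after 6 days 0 of 6, against 0.832%. Between 8 hours and 3 days 1 of 6 passed, against 4.41% of all genes. By an unadjusted p under 0.05, limma gave 2 of 6 members at 8 hours, against 32.4% of all genes, 1 at 3 days, against 21.6%, 1 at 6 days, against 18.2%, and 4 between 8 hours and 3 days, against 23.0%. With 6 members these shares do not separate the group from the background. The test was limma's, fitted as genotype plus time over all 8 arrays, with Benjamini-Hochberg adjustment over 6128 genes, and each change is the mean of both genotypes on the log2 scale with its standard error (SE). All changes from control in a genotype share its 1 control array. With 1 array left out, the other array of that time no longer bears on comparisons of other times or of genotypes. For those comparisons, leaving out either array of a time is the same fit, so such a pair is 1 check.

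**Figure D1:**
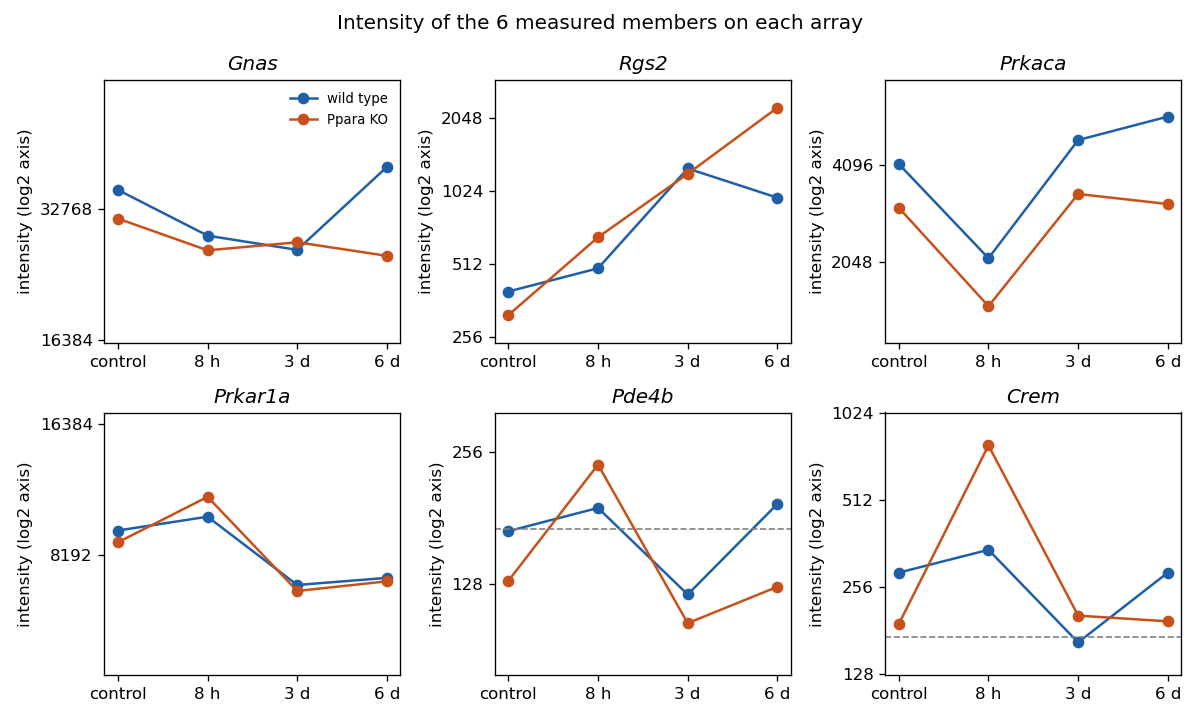
Intensity (log2 axis) of each measured member on the 8 arrays against time of treatment, with 1 point per array, wild type in blue and Ppara KO in orange, and the floor of 171 as a dashed line where it falls in range. Prkaca dips at 8 hours in both genotypes, Rgs2 climbs to 2248 in Ppara KO at 6 days, and most Pde4b points lie under the floor.

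Gnas encodes the α subunit of Gs, the first step after the receptor. Wild type intensity was 36233 in control, 28468 by 8 hours, 26407 by 3 days and 40887 by 6 days, and 31149, 26347, 27489 and 25590 in Ppara KO in the same order. The arrays of the genotypes overlapped, and the whole range was 1.60-fold. The change was -0.30 ± 0.23 (SE) at 8 hours, -0.32 ± 0.23 at 3 days and -0.06 ± 0.23 at 6 days, with limma adjusted p of 0.427, 0.467 and 0.928. The 95% interval at 8 hours ran from -0.85 to 0.26, so a fall of nearly that size is within the error. The probe set carries the suffix that Affymetrix gives to sets matching several transcripts, and Gnas is a locus with several, so the value may sum over them. Its other 2 probe sets were under the floor on all 8 arrays.

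Most G protein subunits around Gnas gave no call. Of 18 tested genes of the G protein list, 1 rose and 1 fell at 8 hours (11.1%, against 14.8% of all genes), with a median change of -0.06 against -0.02 over all genes. Gnai1, an α subunit of the inhibitory G protein Gi, fell by 1.11 ± 0.18 (limma adjusted p 0.0164). It went from 9352 to 4329 (wild type) and 7453 to 3439 (Ppara KO), and was at 7050 and 4692 at 3 days. Gng12, a γ subunit, rose by 0.84 ± 0.20 (limma adjusted p 0.0441), from 3602 to 5367 (wild type) and 2831 to 6063 (Ppara KO). The call for Gng12 was lost with any 1 of the 8 arrays left out, and that for Gnai1 without either 8 hour array, either 3 day array or the Ppara KO control (highest adjusted p 0.112). At 3 days and 6 days 0 of 18 passed.

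Tshr, Mc2r and Ptger3, receptors that couple to Gs or Gi, were the 3 largest falls called in the pathway at 8 hours, although the β-adrenergic receptors themselves were not analysed here. Of 21 listed receptors 7 were tested. At 8 hours 3 fell and 0 rose (42.9%, against 14.8% of all genes), with a median of -0.77 against -0.02. The receptor list was drawn up with earlier results of these data known, so this share is no independent evidence that receptors fell. Tshr, the thyrotropin receptor, went from 4473 to 155 (wild type) and 2206 to 200 (Ppara KO). Mc2r, the receptor for ACTH, went from 1698 to 150 (wild type) and 1282 to 170 (Ppara KO), at the floor in both. Ptger3, a prostaglandin E2 receptor that couples to Gi, went from 1369 to 170 and from 772 to 90, also at the floor. The changes were -4.09 ± 0.35 for Tshr, -3.11 ± 0.25 for Mc2r and -2.59 ± 0.29 for Ptger3 on the log2 scale, each a bound since values stop at the floor, with limma adjusted p of 0.00409, 0.00332 and 0.00764. All 3 were higher at 3 days than at 8 hours, by at least 2.58 ± 0.35, 1.56 ± 0.25 and 2.56 ± 0.29, with limma adjusted p of 0.0251, 0.0349 and 0.0177. At 3 days Ptger3 stood at 1393 in wild type and 731 in Ppara KO, near its controls. Tshr stood at 1410 and 871 and Mc2r at 518 and 492, below their controls. The 8 hour calls of Mc2r and Ptger3 were lost without either 8 hour array or the Ppara KO control, and that of Tshr without the Ppara KO 8 hour array or the Ppara KO control (highest adjusted p 0.0846). The calls from 8 hours to 3 days were kept without either 6 day array and lost without any 1 of the other 6 (highest adjusted p 0.327).

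Rgs2 encodes a regulator of G protein signalling that speeds the switching off of Gq and also binds and inhibits several adenylyl cyclases. Wild type intensity was 395 in control, 492 by 8 hours, 1265 by 3 days and 960 by 6 days. In Ppara KO it was 316, 660, 1203 and 2248 in the same order. All 6 treated arrays were above both controls, and the 4 infusion arrays were above both 8 hour arrays. In wild type the ratio to control was 1.25 at 8 hours, 3.20 at 3 days and 2.43 at 6 days, and in Ppara KO it was 2.09, 3.81 and 7.11. Rgs2 was the 1 member that was at least 2-fold above its own control at 3 days and 6 days in both genotypes. Of all genes, 11.3% and 7.6% differed by 2-fold or more, in either direction, at these times in wild type and 15.6% and 17.6% in Ppara KO. No test was made since each group is 1 array. Each share is for 1 array, and the share of genes 2-fold higher on all 4 infusion arrays was not counted. At 8 hours, where 16.0% of all genes differed so in wild type and 22.2% in Ppara KO, 0 members did in wild type and Rgs2, Crem and Prkaca did in Ppara KO.

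None of the Rgs2 changes passed the test over all genes. The change was 0.69 ± 0.38 (SE) at 8 hours, 1.80 ± 0.38 at 3 days and 2.06 ± 0.38 at 6 days, with limma adjusted p of 0.272, 0.0831 and 0.0772. The 95% intervals at 3 days and 6 days, from 0.88 to 2.73 and from 1.13 to 2.98, did not reach 0 for this gene taken alone. The 8 hour change was 0.27 on leaving out the control of Ppara KO and 1.11 that of wild type. Leaving out either 6 day array brought the 3 day change to an adjusted p of 0.0194. Leaving out the wild type 6 day array gave 2.67 ± 0.31 at 6 days (adjusted p 0.0246), and a prior with an intensity trend gave an adjusted p of 0.0470 there. The lowest value for the 6 day change with 1 array left out was 1.45, without the Ppara KO 6 day array. Rgs2 differed between 8 hours and 3 days by 1.11 ± 0.38 (limma adjusted p 0.154).

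Summed macrophage markers were also above control on all 6 treated arrays, although Cd14, 1 of them, was at 1334 in wild type at 6 days against 1597 in its control. The summed intensity of 7 macrophage markers was 13247, 38306, 53920 and 19319 in wild type from control to 6 days and 14273, 42022, 72626 and 95191 in Ppara KO. All 7 were measured, and Msr1 was under the floor in both controls and in wild type at 6 days. Rgs2 and this sum were both highest in Ppara KO at 6 days. In wild type at 6 days the sum was 1.46 times its control, while Rgs2 was 2.43 times its control. At 8 hours the sum was 2.89 times control in wild type while Rgs2 was 1.25 times. In bulk tissue a change in the number of cells of a type and a change in RNA per cell cannot be told apart, and the part of macrophage RNA in the Rgs2 values was not tested.

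The RGS list, Rgs2 included, gave no call. Of 16 listed, 8 were tested and 0 passed at 8 hours, 3 days or 6 days. Limma's unadjusted p was under 0.05 for 3, 4 and 2 of the 8, against 32.4%, 21.6% and 18.2% of all genes, with Rgs2 among those of 3 days and 6 days. Rgs10, which acts on Gi and is abundant in immune cells, had intensities of 607, 1197, 2020 and 834 in wild type and 678, 861, 2860 and 3795 in Ppara KO. Its change was 1.91 ± 0.59 at 3 days, with a limma adjusted p of 0.150. Rgs10 was chosen after its values were seen.

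Of the adenylyl cyclases, which make cyclic AMP, 6 of 9 listed genes were tested. Adcy6, a cyclase that Gs activates and Gi inhibits, fell at 8 hours by 1.17 ± 0.25 (limma adjusted p 0.0309), the 1 call of this list (16.7%, against 14.8% of all genes). It went from 3649 to 1747 (wild type) and 3120 to 1286 (Ppara KO), and was at 2478 and 1672 at 3 days. That call was kept without either 6 day array and lost without any 1 of the other 6 (highest adjusted p 0.176), with the floor at the 25th percentile and with no filter. Adcy7 had intensities of 458, 658, 1386 and 401 in wild type and 778, 615, 1963 and 3283 in Ppara KO, with a change of 1.47 ± 0.71 at 3 days (limma adjusted p 0.293).

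Prkaca encodes the α catalytic subunit of protein kinase A, the enzyme that phosphorylates the lipolytic proteins. Wild type intensity was 4121 in control, 2098 by 8 hours, 4894 by 3 days and 5790 by 6 days. In Ppara KO it was 3013, 1487, 3325 and 3094 in the same order. Both 8 hour arrays lay below the other 6 arrays, and the infusion arrays lay at or above the control of their own genotype. Prkaca fell by 0.996 ± 0.19 (SE) on the log2 scale at 8 hours, a 1.995-fold fall (limma adjusted p 0.027, 95% interval from -1.47 to -0.52). The ratio to control was 0.509 in wild type and 0.494 in Ppara KO, so the fall was of like size on both. Prkaca was higher at 3 days than at 8 hours by 1.19 ± 0.19 (limma adjusted p 0.0349), a comparison that uses no control array. Dose and manner of dosing also differ between these times. The change from control was 0.20 ± 0.19 at 3 days and 0.26 ± 0.19 at 6 days, with limma adjusted p of 0.606 and 0.517.

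The calls for Prkaca rest on the full set of arrays, while its values moved little. With 1 array left out the 8 hour change ran from -1.10 to -0.90. The adjusted p was 0.0222 with either 6 day array left out. It was 0.063 on leaving out the control of wild type and 0.136 that of Ppara KO, 0.146 and 0.142 for their 8 hour arrays, and 0.0814 for a 3 day array of either genotype. The rise to 3 days ran from 1.12 to 1.26, with an adjusted p of 0.0296 without either 6 day array, 0.0712 without either control, 0.171 and 0.230 without the wild type and Ppara KO 8 hour arrays, and 0.273 and 0.329 without the wild type and Ppara KO 3 day arrays. With no filter on dim probe sets, the adjusted p was 0.0658 at 8 hours and 0.0912 for the rise, and with the floor at the 25th percentile it was 0.0615 for the rise.

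**Figure D2:**
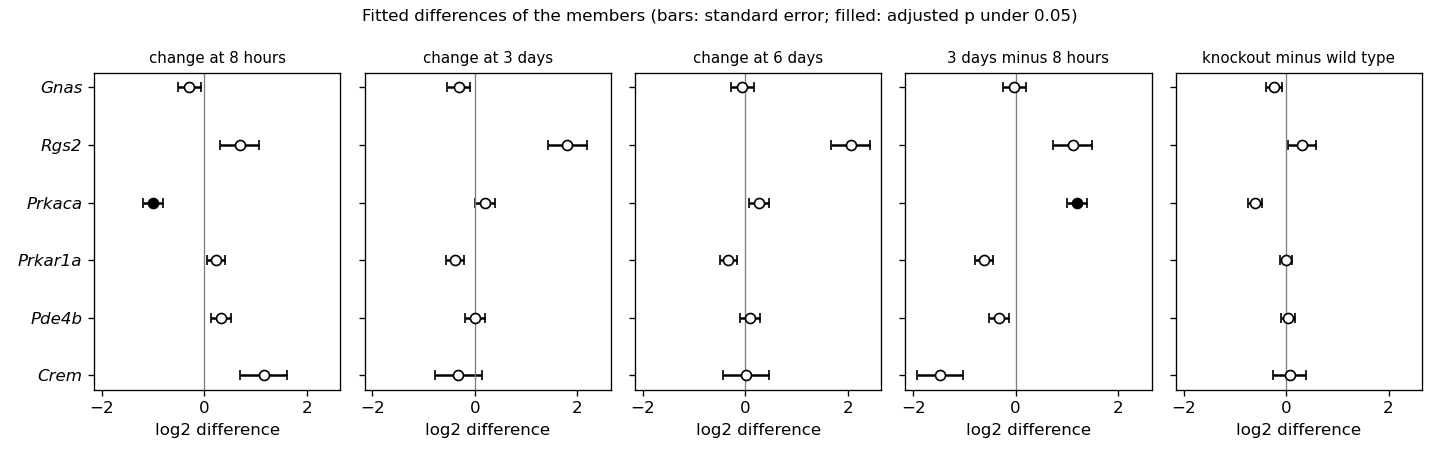
Fitted log2 differences of the 6 members in 5 comparisons, with the standard error as bars and filled points where the limma adjusted p was under 0.05. The filled points are Prkaca at 8 hours (-0.996) and from 8 hours to 3 days (1.19), and Rgs2 at 6 days (2.06) is the point farthest from 0.

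Adipocyte markers were low on the same 8 hour arrays. The summed intensity of 8 adipocyte markers was 179506, 73474, 151356 and 162120 in wild type from control to 6 days and 156089, 69649, 111679 and 112936 in Ppara KO, with all 8 above the floor on every array. At 8 hours the sum was 0.409 of control in wild type and 0.446 in Ppara KO, beside 0.509 and 0.494 for Prkaca. Fabp4, which encodes a fatty acid binding protein of fat cells, was at 11088 and 10169 in wild type and at 11008 and 12395 in Ppara KO, control and 8 hours. The part of fat cell RNA as a whole in the Prkaca value was not tested.

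The genes most like Prkaca in profile, by the root mean square difference of centred log2 values over 8 arrays, were Chpt1 (0.13), Cat (0.14) and Gys1 (0.14). Chpt1 makes phosphatidylcholine, Cat is catalase and Gys1 is muscle-type glycogen synthase. Cat, for example, was at 10440 in control, 4703 at 8 hours and 12677 at 3 days in wild type. In Ppara KO it was at 7969, 3797 and 8550. Those most like Rgs2 were Incenp (0.29) and Smc2 (0.30), both with roles in chromosome segregation, and the sterol exporter gene Abcg1 (0.29). Those most like Crem were Socs2 (0.23), Cdh13 (0.24) and Sphk1 (0.25). These are the nearest among the 6128 genes tested, and no test of likeness was made.

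Prkar1a encodes RIα, a regulatory subunit that holds the catalytic subunits inactive until cyclic AMP binds. Wild type intensity was 9325 in control, 10030 by 8 hours, 6996 by 3 days and 7264 by 6 days, and 8764, 11136, 6779 and 7133 in Ppara KO. The 4 infusion arrays were below both controls and both 8 hour arrays were above them, with the genotypes close at each time. The change was 0.23 ± 0.17 (SE) at 8 hours, -0.39 ± 0.17 at 3 days and -0.33 ± 0.17 at 6 days, with limma adjusted p of 0.424, 0.258 and 0.374. Between 8 hours and 3 days the difference was -0.62 ± 0.17, with a 95% interval from -1.04 to -0.20 for the gene alone, and a limma adjusted p of 0.104 over all genes. Where Prkaca was lowest, at 8 hours, Prkar1a was highest, and the difference between these genes was not tested.

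Of 8 tested genes of the protein kinase A list, Prkaca was the 1 call at 8 hours (12.5%, against 14.8% of all genes). Prkacb, the β catalytic subunit, was at 3226, 3115, 3177 and 2874 in wild type and 3033, 2867, 4246 and 4093 in Ppara KO, with a change of -0.07 ± 0.23 at 8 hours (limma adjusted p 0.887). Prkar2a, the RIIα subunit, had a change of 0.54 ± 0.19 at 8 hours (limma adjusted p 0.110), from 204 to 296 (wild type) and 196 to 285 (Ppara KO). Prkacb and Prkar2a were chosen after their values were seen. The median of the list was 0.04 at 8 hours. Of 6 tested A-kinase anchors, which tether the kinase, 0 passed at any time, and limma's unadjusted p was under 0.05 for 2, 2 and 2 of them at 8 hours, 3 days and 6 days, against 32.4%, 21.6% and 18.2% of all genes.

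Pde4b encodes a phosphodiesterase that is specific for cyclic AMP. Its intensity was 169, 191, 121 and 195 in wild type from control to 6 days and 130, 240, 104 and 126 in Ppara KO. It exceeded the floor of 171 on 3 of 8 arrays, both 8 hour arrays and the wild type 6 day array, and the values under the floor have no order. The change at 8 hours was at least 0.32 ± 0.20 (limma adjusted p 0.315), and a change below the floor was not detectable. Of 5 phosphodiesterases tested, 1 fell at 8 hours and 0 rose (20.0%, against 14.8% of all genes). Pde1a, which calcium and calmodulin activate, fell by at least 1.31 ± 0.23 (limma adjusted p 0.0222), from 447 to 117 (wild type) and 402 to 130 (Ppara KO). That call was kept without either 6 day array and lost without any 1 of the other 6 (highest adjusted p 0.139). Pde8a, specific for cyclic AMP, was at 417, 518, 420 and 826 in wild type and 580, 502, 651 and 755 in Ppara KO, with 0.68 ± 0.25 at 6 days (limma adjusted p 0.240). Pde1b was at 268, 332, 369 and 229 and at 201, 356, 465 and 561, with 0.84 ± 0.39 at 3 days (limma adjusted p 0.284).

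Crem had its highest value on the Ppara KO 8 hour array. Wild type intensity was 286 in control, 343 by 8 hours, 164 by 3 days and 286 by 6 days, and 190, 788, 203 and 194 in Ppara KO. The array in Ppara KO at 8 hours stood apart from the other 7, which lay between 164 and 343. The ratio to control at 8 hours was 4.15 in Ppara KO and 1.20 in wild type, and whether they differ rests on 1 array each. A second Crem probe set gave 169, 235, 72 and 213 in wild type and 161, 679, 99 and 158 in Ppara KO, and so was also highest in Ppara KO at 8 hours. The change over both genotypes was 1.16 ± 0.45 (SE) at 8 hours, with a limma adjusted p of 0.142. It was 0.41 without the Ppara KO 8 hour array, the lowest value with 1 array left out, and 1.91 without the wild type 8 hour array, the highest. Its difference between 8 hours and 3 days was -1.48 ± 0.45 (limma adjusted p 0.124), with -0.73 on leaving out the Ppara KO 8 hour array and -2.23 that of wild type. At 3 days and 6 days the changes from control were -0.32 ± 0.45 and 0.02 ± 0.45. Both probe sets carry the suffix for several transcripts, so activator and repressor forms of Crem were not told apart.

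Neutrophil markers were also high at 8 hours. The summed intensity of 7 neutrophil markers was 769, 24709, 1350 and 822 in wild type and 553, 32937, 2885 and 2158 in Ppara KO. At 8 hours 6 of the 7 exceeded the floor in wild type and 5 in Ppara KO, against 3 and 1 in the controls. The largest parts of the 8 hour sums were S100a8 (12282 in wild type, 17892 in Ppara KO) and S100a9 (8857 and 10978). Ltf, 1 of the 7, was lower at 8 hours, at 158 against 182 in wild type and 61 against 121 in Ppara KO, near or under the floor. In wild type at 8 hours, where this sum was 32.1 times its control, Crem was 1.20 times its control. The part of neutrophil RNA in the Crem value of the Ppara KO 8 hour array was not tested.

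**Figure D3:**
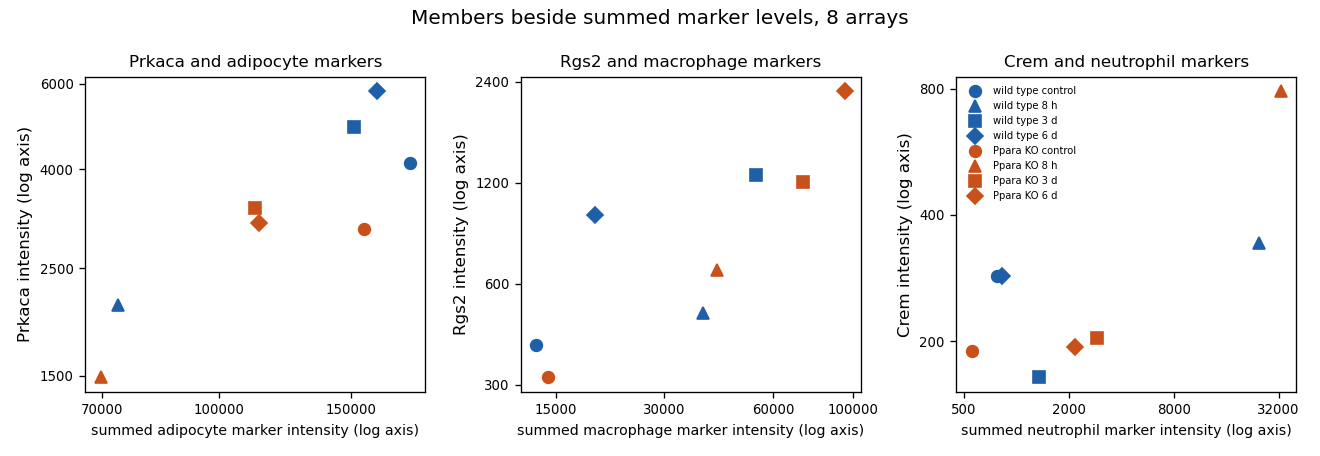
Intensity of Prkaca, Rgs2 and Crem against the summed intensity of adipocyte, macrophage and neutrophil markers, each on log axes, with 1 point per array, colour for genotype and symbol for time. The 8 hour arrays are lowest in both Prkaca and adipocyte markers, and the Ppara KO 8 hour array is highest in both Crem and neutrophil markers.

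Of 5 tested genes of the CREB family and its coactivators, 1 rose at 8 hours and 0 fell (20.0%, against 14.8% of all genes). Atf4, a factor of the integrated stress response, rose by 1.03 ± 0.19 (limma adjusted p 0.0238), from 3023 to 7023 (wild type) and 4274 to 7683 (Ppara KO). It fell by 1.08 ± 0.19 from 8 hours to 3 days (limma adjusted p 0.0391), to 3366 and 3578. Both calls were kept without either 6 day array and lost without any 1 of the other 6 (highest adjusted p 0.369). Atf2 was at 2281, 1293, 1361 and 2031 in wild type and 1480, 1499, 1528 and 1870 in Ppara KO (-0.40 ± 0.25 at 8 hours, limma adjusted p 0.333).

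Genes known to respond to cyclic AMP held 5 of the 14 calls of the pathway at 8 hours, and whether they differ from the signalling components was not tested. Of 12 tested, 4 rose and 1 fell at 8 hours (41.7%, against 14.8% of all genes), with a median of 0.63 against -0.02. The list was drawn up with earlier results of these data known and is no independent evidence of direction. Ucp1, the uncoupling protein of brown fat, rose by 5.48 ± 0.33 (limma adjusted p 0.00186), from 381 to 23779 (wild type) and 300 to 9616 (Ppara KO). Junb, an AP-1 factor, rose by 3.34 ± 0.50 (limma adjusted p 0.0137), from 229 to 2610 (wild type) and 326 to 2925 (Ppara KO). Odc1, which makes polyamines, rose by 2.50 ± 0.30 (limma adjusted p 0.00911), from 678 to 2662 (wild type) and 598 to 4849 (Ppara KO).

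Dio2, the deiodinase that activates thyroid hormone, rose by at least 2.10 ± 0.36 (limma adjusted p 0.0195), from 176 to 1012 in wild type and from 93, under the floor, to 547 in Ppara KO. Pck1, the enzyme of glyceroneogenesis, fell by 1.13 ± 0.22 (limma adjusted p 0.0266), from 19693 to 10796 (wild type) and 16898 to 6440 (Ppara KO). Nr4a1, an orphan nuclear receptor induced through CREB, stood at 461 against 211 in wild type and 1034 against 427 in Ppara KO at 8 hours (1.20 ± 0.38, limma adjusted p 0.0838). Pck1 and Nr4a1 were chosen after their values were seen. At 3 days and 6 days Ucp1 was the 1 call of 12, with a rise of 4.31 ± 0.33 and 6.16 ± 0.33 (limma adjusted p 0.0223 and 0.00855). Its 3 day call was kept without either 6 day array and lost without any 1 of the other 6 (highest adjusted p 0.287), and its 6 day call was lost without either control, either 8 hour array or the Ppara KO 6 day array (highest adjusted p 0.169). Odc1 fell by 1.93 ± 0.30 from 8 hours to 3 days (limma adjusted p 0.0326), a call kept without either 6 day array and lost without any 1 of the other 6 (highest adjusted p 0.307), with the lower floor and with no filter. The 8 hour call of Ucp1 was lost without the Ppara KO 8 hour array (adjusted p 0.0656), and those of Junb, Odc1, Dio2 and Pck1 without either 8 hour array or the Ppara KO control, among others (highest adjusted p 0.172).

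Across all 11 lists 81 of 150 genes were tested, 16 lay under the filter and 53 had no probe set of their own. At 8 hours 6 rose and 8 fell, 17.3% of 81 against 14.8% of all genes, with a median change of -0.03 against -0.02. At 3 days and at 6 days 1 rose and 0 fell (1.23%, against 1.14% and 0.832%), and from 8 hours to 3 days 4 rose and 2 fell (7.41%, against 4.41%). The lists of receptor kinases and arrestins and of Epac and Rap1, with 3 tested genes each, had 0 calls at 8 hours, 3 days and 6 days, and limma's unadjusted p was under 0.05 for 0 of them. The 14 calls at 8 hours became 0 when the Ppara KO 8 hour array was left out, 1 for the Ppara KO control and 2 for the 8 hour array of wild type. They became 6 on leaving out a 3 day array of either genotype, 7 for the control of wild type, and 17 for either 6 day array. With no filter on dim probe sets 4 of the 14 remained, Gnai1, Mc2r, Tshr and Ucp1, and 0 calls of the lists at 3 days, at 6 days or between 8 hours and 3 days.

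**Figure D4:**
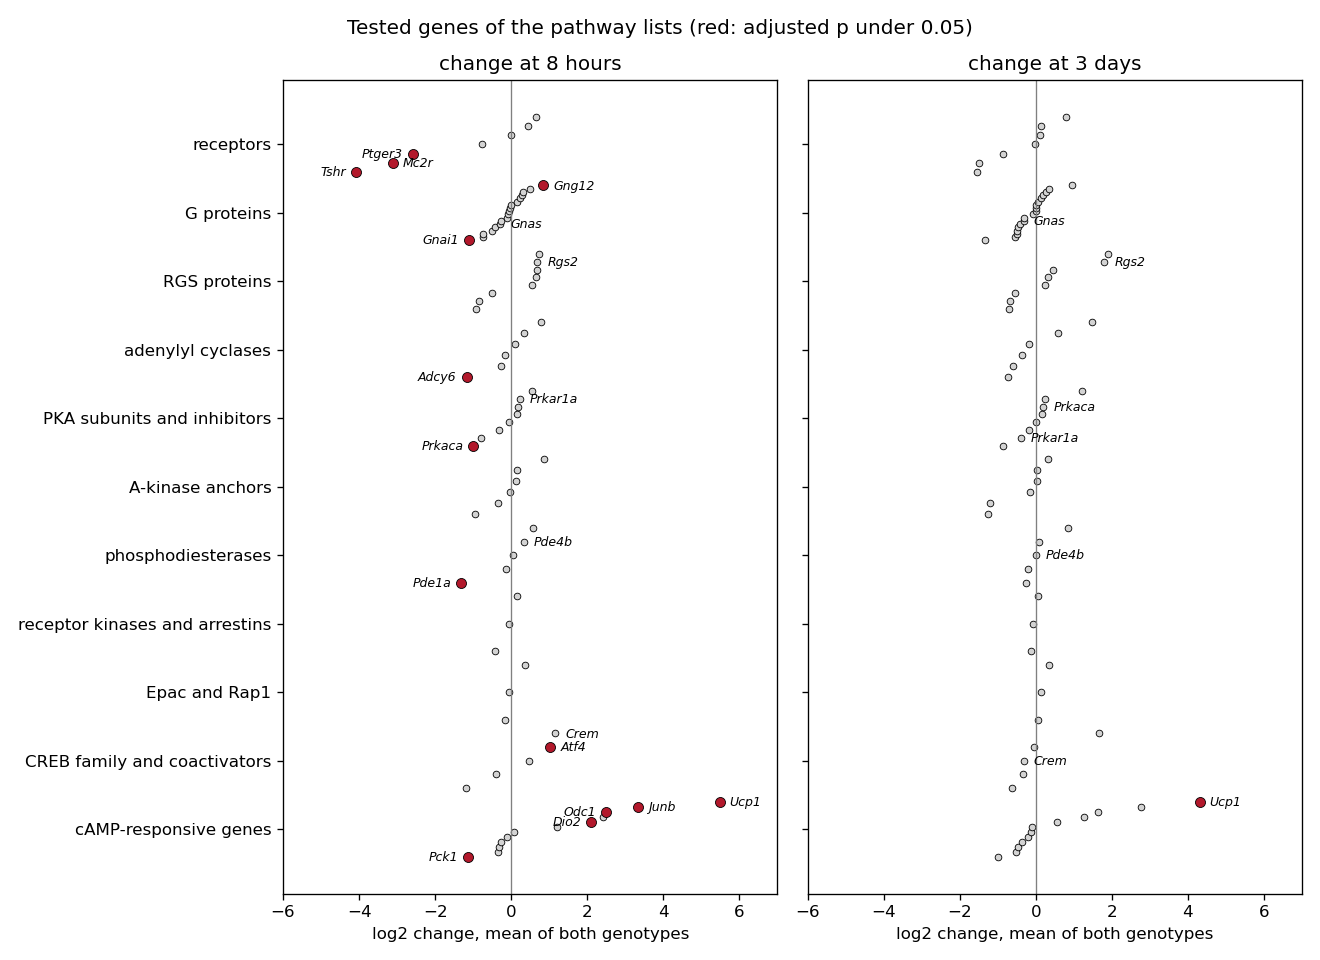
Log2 change at 8 hours and at 3 days, as the mean of both genotypes, for the 81 tested genes in rows by list, with red points where the limma adjusted p was under 0.05. At 8 hours 14 points are red, with the receptors Tshr, Mc2r and Ptger3 farthest to the left and Ucp1 farthest to the right, and at 3 days Ucp1 is the 1 red point.

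Between the genotypes 0 of 6 members passed, as did 0.0% of all genes, while limma's unadjusted p was under 0.05 for 15.3% of them. Prkaca was lower in Ppara KO at all 4 times, with a ratio to wild type of 0.731 in controls, 0.709 by 8 hours, 0.679 by 3 days and 0.534 by 6 days. The difference over 4 arrays each was -0.60 ± 0.14 (SE, limma adjusted p 0.285). The adipocyte marker sum was also lower in Ppara KO at all 4 times, and its part was not tested. The other members differed by -0.24 ± 0.16 for Gnas, 0.31 ± 0.27 for Rgs2, 0.07 ± 0.32 for Crem, 0.04 ± 0.14 for Pde4b and -0.003 ± 0.12 for Prkar1a. The Rgs2 difference was 0.01 with either 6 day array left out and 0.53 with either control left out.

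Whether the response to drug differed between genotypes was tested with an interaction, and 0 of 6 members and 0.0% of all genes passed, with an unadjusted p under 0.05 for 10.2% of all genes. The difference in mean response, Ppara KO minus wild type, was 0.85 ± 0.57 for Rgs2 (95% interval from -0.71 to 2.40), 0.89 ± 0.74 for Crem and -0.20 ± 0.29 for Prkaca. The limma adjusted p was 0.641, 0.699 and 0.805. At 6 days Rgs2 in Ppara KO was 2.34 times the wild type value, and at 3 days it was 0.951 times. From 3 days to 6 days 0 of 6 members passed, as did 0.0% of all genes, with 1.78% at an unadjusted p under 0.05. The 95% interval for Crem ran from -1.13 to 2.90, so for both Rgs2 and Crem a difference in response of over 2-fold lies within the error.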

How the data were processed

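The deposited values are array intensity per probe set on Affymetrix U74Av2 arrays, 1 array per group. How the authors summarised and scaled them was not given in the sources used here. Medians of 320 to 322 on all arrays show that they were scaled alike, and 11.9% of values lie below 0. Arrays give no read depth, and their number limits the precision.

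Of 12488 probe sets, 66 controls were left out and 10855 carried 1 gene symbol, 396 several and 1237 none in the annotation. Symbols were updated through RefSeq gene numbers for 10839. Values were raised to a floor of 171 (the 40th percentile), log2 was taken, and the brightest probe set stood for its gene. Genes with at least 2 arrays above the floor were tested (6128).

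Limma 3.58.1 in R 4.3.3 fitted genotype plus time over 8 arrays, and a second fit added genotype by treatment. P-values were adjusted by Benjamini-Hochberg with a threshold of 0.05. The code of the fits was run on simulated data with independent noise on each array. Those data held no disagreement between genotypes over time and no signal of other organs, so they do not bear on the calls made here. Alternatives were a floor at the 25th percentile, no filter, quantile normalization, median scaling, an intensity trend with a robust prior, the mean of probe sets, and each array left out. The deposited arrays were already alike, with 25th percentiles of 50 to 51 and 75th percentiles of 1248 to 1250. Quantile normalization and median scaling (factors 0.996 to 1.002) could therefore change little.

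Members and pathway lists were chosen with earlier results of these data known. Named genes were the members, the called genes of each list (at most 4 per list and comparison, by size), the 2 brightest receptors, cyclases, phosphodiesterases and CREB family genes, and the 3 nearest profiles of each member with a range over 1 on the log2 scale. Any other pathway or marker gene named, those of the closing section included, was chosen after its values were seen.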

Additional observations from a re-analysis of the deposited data

Results flagged for a closer look

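For 7 genes of the pathway lists all 3 treated arrays of wild type moved one way from control and all 3 of Ppara KO the other way. This held for 8.64% of the 81 list genes and 8.26% of all 6128 genes tested, and for 0 of the 6 members. The treated arrays of a genotype share its 1 control array. No size of change was required, and some changes were near 0. The smallest was 0.006 for Pde7a and 0.018 for Atf2 in Ppara KO, and -0.019 for Gng10 in wild type. Pde7a in wild type was under the floor at 3 days (166) and 6 days (155). The difference in mean response, Ppara KO minus wild type, was 0.86 for Arrb1, a β-arrestin, 0.71 for Atf2, a CREB family factor, and 0.81 for Pde7a, a phosphodiesterase. It was 0.72 for Gng10, a G protein γ subunit, and -1.53 for Gnao1, the α subunit of Go. It was -0.56 for Rap1gap, which switches off Rap1, and -0.91 for Th, tyrosine hydroxylase. By limma's interaction test 0 of the 7 passed, with adjusted p from 0.437 for Th to 0.589 for Rap1gap.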

How the results depend on the processing

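Arrays could not be paired by animal because each group has 1 array and the labels carry no replicate numbers. The genotype comparison matched the arrays of the genotypes by time. The cause of the changes given here was not tested. The Prkaca change at 8 hours stayed at -0.996 without a filter on dim probe sets, with an adjusted p of 0.0658, and ran from -1.10 to -0.90 with 1 array left out. Its rise by 3 days stayed at 1.19 without the filter or with the floor at the 25th percentile (adjusted p 0.0912 and 0.0615) and ran from 1.12 to 1.26 with 1 array left out. Rgs2 ran from 1.38 to 2.23 at 3 days and from 1.45 to 2.67 at 6 days with 1 array left out, and stayed at 2.06 at 6 days with a trend and robust prior (adjusted p 0.0470).

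Over all genes, calls at 8 hours numbered 601 with the floor at the 25th percentile, 222 without the filter and 0 to 1097 with 1 array left out, against 906. At 3 days they numbered 32, 0 and 0 to 442, and 153 with the trend prior, against 70. At 6 days they numbered 11, 0 and 0 to 286, and 128 with the trend prior, against 51. Between 8 hours and 3 days they numbered 126, 35 and 0 to 404, against 270. For response by genotype 172 genes passed without the filter, against 0, and 3 of them were on the pathway lists. Without the filter 8251 genes were tested, of which 1808 lay at the floor on all 8 arrays and had no spread. Limma's estimate of the spread draws on all genes tested, so counts with and without the filter are not like for like. On the lists, calls at 8 hours numbered 4 without the filter and 0 to 17 with 1 array left out. At 3 days they numbered 2 with the lower floor, 0 without the filter, 2 with the trend prior and 0 to 10 with 1 array left out, and at 6 days 2, 0, 4 and 0 to 9. From 8 hours to 3 days they numbered 2, 0 and 0 to 9.

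Signs turned in comparisons without a call for that member. Under quantile normalization Gnas was 0.064 from 8 hours to 3 days and Prkar1a 0.008 between genotypes, and with the lower floor Pde4b was -0.22 between genotypes. With 1 array left out, Crem ran from -0.77 to 0.12 at 3 days and from -0.43 to 0.46 at 6 days, Gnas from -0.35 to 0.24 and Pde4b from -0.055 to 0.24 at 6 days, and Gnas from -0.22 to 0.17 from 8 hours to 3 days. From 3 to 6 days Gnas ran from -0.029 to 0.56, Rgs2 from -0.36 to 0.86, Prkaca from -0.13 to 0.27, Pde4b from -0.055 to 0.24 and Crem from -0.085 to 0.76. Between genotypes Prkar1a ran from -0.054 to 0.026, Pde4b from -0.063 to 0.11 and Crem from -0.30 to 0.30. For response by genotype Gnas ran from -0.18 to 0.19 and Pde4b from -0.10 to 0.17. Response by genotype could not be fitted without either control array, so those alternatives were not run. Signal near the floor limits Pde4b and Crem.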
